A study of Bos taurus with 39 samples.

Results

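RNA-seq libraries from the milk somatic cells of 39 Holstein dairy cows fell into 2 sets by the level of a single transcript, RPL12. In 20 libraries RPL12 was below 1 RPKM, a read density per length of gene and per mapped reads of the library, and in 19 it was above 300 RPKM. No library lay between these limits. The sets were chosen by these RPL12 values alone, so the RPL12 difference is given as a description with no test. The sets are called RPL12-absent and RPL12-present below, although every library held at least 4 RPL12 reads.

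All cows were of the Holstein dairy breed and gave milk cells under 1 protocol, with RNA taken by Trizol and libraries made with the TruSeq kit. Each cow gave 1 library and carried 1 of 2 labels, LOW RFI (22 cows) or HIGH RFI (17 cows), read here as residual feed intake, in which a low value stands for an efficient animal. No treatment, genotype or age is given in the labels. The RPL12-absent set held 9 LOW RFI and 11 HIGH RFI libraries, and the RPL12-present set held 13 LOW RFI and 6 HIGH RFI libraries. Names such as LOW RFI 8 follow label order and pair no cows.

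RPL12 encodes a protein of the large ribosomal subunit. It sits at the base of the stalk, where with RPLP0, RPLP1 and RPLP2 it forms the site that draws elongation factors to the ribosome. Most ribosomal proteins occur in equal numbers in each ribosome, and their genes are transcribed at high levels in nearly every cell type. In milk somatic cells, a mixture of shed mammary epithelium and immune cells, ribosomal protein transcripts are among the abundant RNAs.

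In the RPL12-absent libraries RPL12 had a lowest level of 0.0544, a median of 0.261 and a highest level of 0.772 RPKM, on between 4 and 51 reads with a median of 13.5. In the RPL12-present libraries it had a lowest level of 300.6, a median of 620.1 and a highest level of 1192 RPKM, on between 15759 and 94276 reads. The median was 2373 times higher in the present set, and the lowest present library stood 389.1 times above the highest absent one. Just inside the lower limit were LOW RFI 8 at 0.772 and HIGH RFI 9 at 0.760 RPKM. Just inside the upper limit were LOW RFI 4 at 300.6 and HIGH RFI 1 at 314.3 RPKM.

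**Figure D1:**
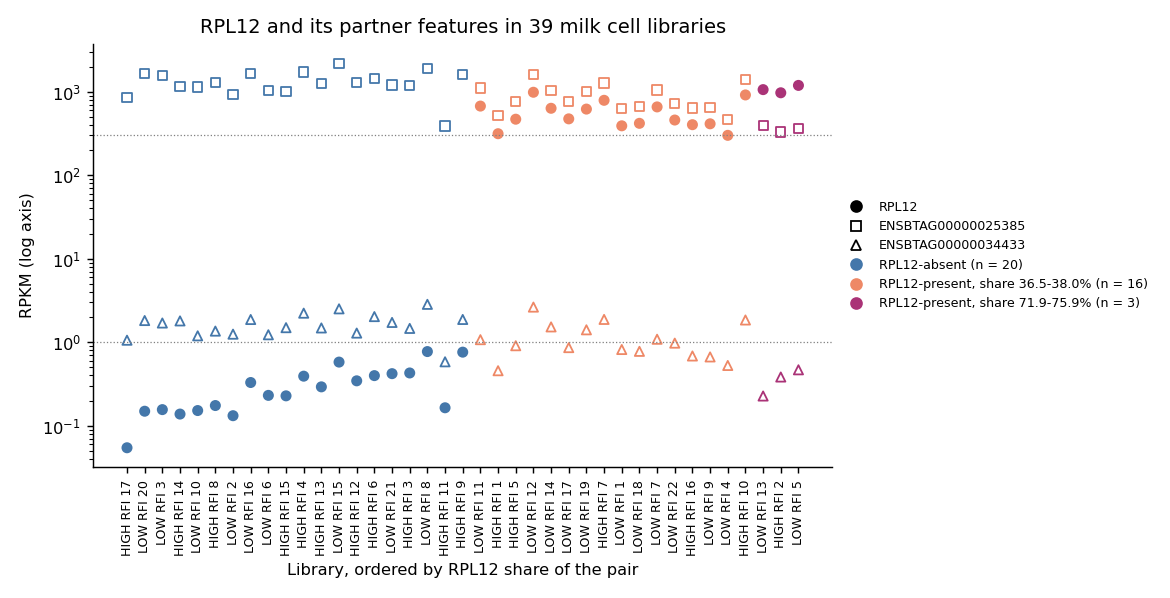
RPL12 (filled circles), ENSBTAG00000025385 (squares) and ENSBTAG00000034433 (triangles) in each of the 39 libraries, in RPKM on a log axis, with libraries ordered by RPL12's percentage of the reads of RPL12 and ENSBTAG00000025385, coloured by class of that percentage, and dotted lines at 1 and 300 RPKM. RPL12 is at or below 0.772 RPKM in 20 libraries and at or above 300.6 RPKM in 19, while ENSBTAG00000025385 is above 300 RPKM in all.

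A second feature of the table, ENSBTAG00000025385, was high in both sets and lower in the RPL12-present set. It has no symbol in the files, and its role is not given here. Its length, recovered from the RPKM values, is 630 bp against 597 bp for RPL12. In the RPL12-absent libraries its lowest, median and highest levels were 388.7, 1271 and 2198 RPKM, with a mean of 1325 ± 407.2 RPKM (SD, n = 20). In the RPL12-present libraries they were 329.0, 727.1 and 1612 RPKM, with a mean of 810.6 ± 364.4 RPKM (SD, n = 19). The sets overlapped, and the present set was lower by a log2 difference of -0.77 (SE 0.19). The feature ENSBTAG00000034433 was also of 630 bp and without a symbol. Its medians were 1.60 RPKM in the absent and 0.861 RPKM in the present libraries. Its log2 difference was -0.42 (SE 0.12) on log2(RPKM + 1), which understates a change at so low a level. On log2(RPKM + 0.1) it was -0.78, against -0.77 for ENSBTAG00000025385. Both features were singled out after their values were seen, and neither passed the limma test over all genes (adjusted p = 1.00 for each). With the mean level of the ribosomal protein genes as a covariate, an alternative added after seeing the data, the limma-adjusted p were 0.000114 and 0.000901, with log2 differences of -0.86 and -0.47. These p come from the contrast that pointed to the features and are no independent support.

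Set against each other in reads, RPL12 and ENSBTAG00000025385 gave 3 separate classes of library. RPL12 held between 0.00603% and 0.0450% of the pair's reads in the 20 RPL12-absent libraries. It held between 36.5% and 38.0%, with a median of 37.1%, in 16 libraries, 11 LOW RFI and 5 HIGH RFI. In the other 3 it held 71.9% (LOW RFI 13), 73.7% (HIGH RFI 2) and 75.9% (LOW RFI 5). No library lay between the classes. They were noticed in the data, so no test is given.

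The sum of the pair was alike in both sets. Pair reads came to 1.3 ± 0.119% (SD, n = 20) of the reads of all other cytosolic ribosomal protein genes in the absent libraries and to 1.3 ± 0.12% (SD, n = 19) in the present libraries. By class the medians were 1.33% at the low share, 1.31% at the middle share and 1.38% at the high share, and the ranges of the classes overlapped. The reads of ENSBTAG00000025385 alone lay in 3 ranges that did not overlap, 1.1% to 1.51%, 0.60% to 0.928% and 0.294% to 0.393% of ribosomal protein reads. ENSBTAG00000034433 stepped in the same order, with 12.7 to 22.2, 6.83 to 13.0 and 2.27 to 4.24 reads per 1000000 ribosomal protein reads, and the first of these ranges overlapped the second. Its reads per 1000 reads of ENSBTAG00000025385 had medians of 1.2, 1.17 and 1.16 in the 3 classes. How reads that match more than 1 gene were counted is not given in the sources used here. Whether the 3 features share sequence, so that reads of one could be counted at another, was not tested. The cause of the classes was not tested.

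**Figure D2:**
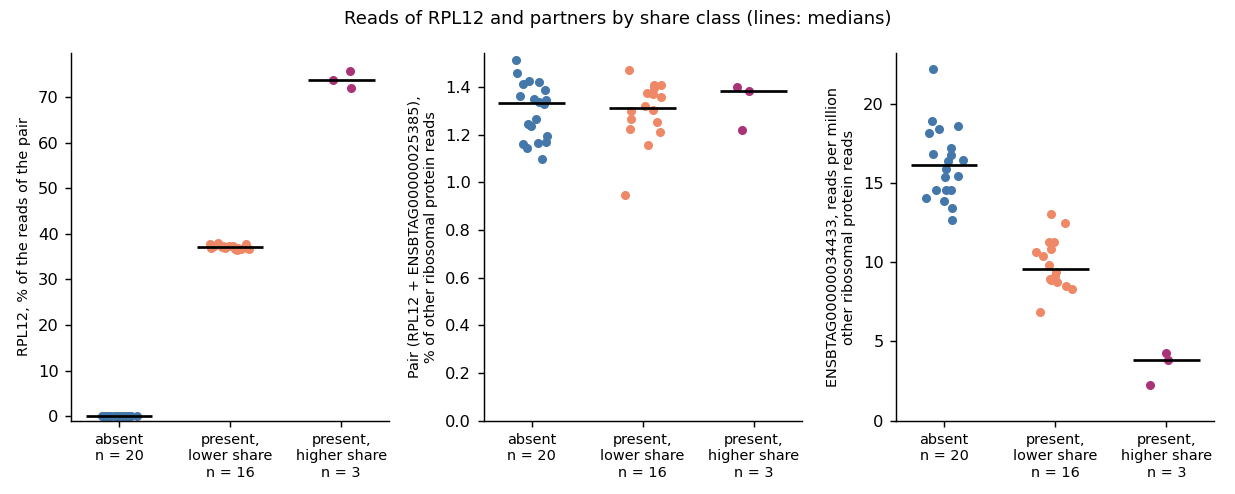
From left to right, RPL12 as a percentage of the reads of RPL12 and ENSBTAG00000025385, the reads of both as a percentage of the other cytosolic ribosomal protein reads, and ENSBTAG00000034433 in reads per 1000000 of those reads, with a point for each library and a line at each class median. The RPL12 share falls into classes near 0, at 36.5% to 38.0% and at 71.9% to 75.9%, while the summed reads of all classes lie between 0.948% and 1.51%, and the levels of ENSBTAG00000034433 step down from class to class.

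RPL12 in the 16 middle libraries, and ENSBTAG00000025385 in these and in the absent libraries, tracked the level of the other ribosomal protein genes. That level is given here as a score, the mean log2(RPKM + 1) over the 77 such genes tested. RPL12 in the absent libraries, the class of high share and ENSBTAG00000034433 were not set against the score. Over the 16 middle libraries RPL12 and the score had a Pearson r of 0.96 and a Spearman rho of 0.97. Without the 2 farthest libraries r was 0.97. Over the same 16 libraries RPL12 and ENSBTAG00000025385 rose together, with r of 0.999 and rho of 1. The lower level of ENSBTAG00000025385 in the present set was thus a step between classes. ENSBTAG00000025385 and the score had r of 0.95 and rho of 0.93 over the 20 absent libraries, and r of 0.96 and rho of 0.97 over the 16 middle ones. Summed pair reads per mapped read followed the score over all 39 libraries with r and rho both at 0.95. RPLP0, the stalk protein that RPL12 adjoins, had an r of 0.92. It is itself 1 of the 77 genes averaged in the score and the pair is not, so these correlations are not like for like. These are descriptions across libraries that share depth and cell make-up with the score.

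No difference between the sets was detected in the other cytosolic ribosomal protein genes. The test was limma-trend on log2(RPKM + 1) over the 10636 genes at 1 RPKM or more in at least 17 libraries, with Benjamini-Hochberg adjustment over all of them and a threshold of 0.05. The background share of calls was 0.0094%, a single row, which is RPL12 itself and follows from the choice of the sets, so nothing is read from it. Of 80 listed ribosomal protein genes, 78 had a row, RPL31 and RPL41 had none, and 77 besides RPL12 were tested. Of these 0 rose and 0 fell, and 0 had an unadjusted p under 0.05 against 0.103% of all genes. Values, here and below the mean log2(RPKM + 1) of a set, were higher in the present set for 76 of 77, against 49.2% of all genes. The median log2 difference was 0.10 against -0.0024 over all other genes. Set medians could go the other way. That of the ribosomal protein score was 9.68 in the absent and 9.52 in the present libraries, and that of RPL10 was 967.7 and 897.7 RPKM. Their standard errors ran from 0.15 to 0.27. The 95% intervals of the single genes reached from -0.48 to 0.64, these bounds being those of RPS3A and RPL37, whose errors are wider than those of most of the list.

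The median depended on single libraries and on the RFI label. Without LOW RFI 12, an RPL12-present library in which ribosomal protein genes took 34.9% of all RPKM, the median log2 difference was 0.025. It was 0.026 without HIGH RFI 11, the RPL12-absent library of lowest ribosomal protein score. Within LOW RFI libraries the median was -0.05 with 25 of 77 genes higher in the present set, and within HIGH RFI libraries it was 0.20 with 77 of 77. The interaction between set and RFI label did not pass for any of the 77 genes (median -0.25, smallest unadjusted p = 0.125). Under quantile normalization, and again with milk protein genes left out of the scaling, 65 of 77 were higher.

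The proteins that form the stalk with RPL12 had transcripts whose levels overlapped between the sets. RPLP0, which anchors the stalk, had lowest, median and highest levels of 791.0, 2384 and 3788 RPKM in the absent and 1299, 2522 and 5052 RPKM in the present libraries. The sets overlapped over most of their range, and the log2 difference was 0.10 (SE 0.17, 95% interval -0.24 to 0.44). RPLP1, whose protein forms the stalk's arms with RPLP2, had medians of 4102 and 3659 RPKM, with a highest level of 7019 RPKM in the absent and 10641 RPKM in the present set. Its log2 difference was 0.09 (SE 0.20). RPLP2 had medians of 652.6 and 649.7 RPKM and a log2 difference of 0.14 (SE 0.18). RPL11, which in human cells binds MDM2 with RPL5 when ribosome assembly is disturbed, had medians of 522.0 and 464.0 RPKM and a difference of 0.12 (SE 0.20). For RPL5 the medians were 252.5 and 244.6 RPKM.

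By subunit, the 44 large subunit genes tested had a median log2 difference of 0.10, and the 33 small subunit genes a median of 0.11. The widest difference was that of RPL37, a large subunit protein, with medians of 1225 RPKM in the absent and 1287 RPKM in the present libraries and a log2 difference of 0.18 (SE 0.23). RPS6, the small subunit protein phosphorylated by S6 kinase, was the 1 gene with a lower mean log2 level in the present set. Its medians were 722.4 and 636.6 RPKM and its log2 difference was -0.0031 (SE 0.17). With the ribosomal protein score as a covariate, the differences of the 77 genes ran from -0.11 for RPL22 to 0.081 for RPL27. Their standard errors were 0.062 to 0.18. The score is the mean of these same 77 genes, so this fit takes out their shared difference by construction.

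**Figure D3:**
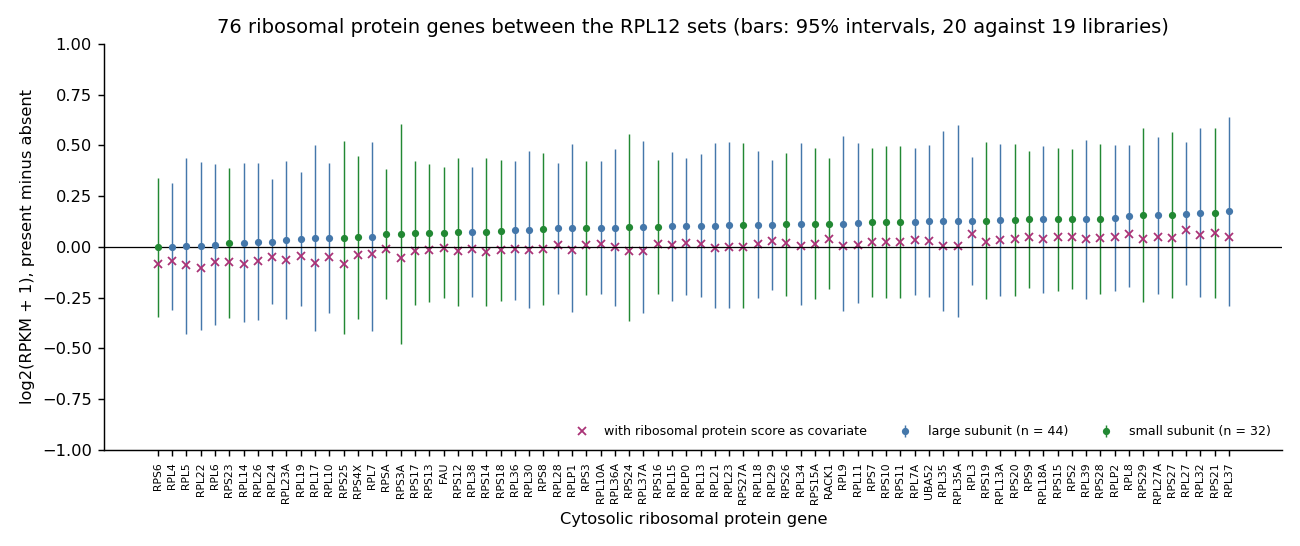
Log2 difference of 76 of the 77 tested cytosolic ribosomal protein genes, RPL12-present minus RPL12-absent, with its 95% interval from the limma fit, on log2(RPKM + 1), coloured by subunit, with crosses for the difference under the ribosomal protein score as covariate. All 76 intervals cross 0, and 75 of the 76 values lie above it. The values run from -0.0031 to 0.18. The score averages the tested ribosomal protein genes themselves, so the crosses lack their shared difference by construction.

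Genes that act with the ribosome gave no call. The paralogs of ribosomal proteins (6 tested, median log2 difference 0.012), the proteins of the mitochondrial ribosome (77 tested, 0.0016) and the initiation factors (29 tested, 14 of them higher in the present set) had 0 genes passing in either direction and 0 at an unadjusted p under 0.05. The list of elongation factors and other genes whose messages start with a terminal oligopyrimidine tract had 22 tested, 10 higher and a median of -0.013. Among them EEF1A1, the factor that delivers aminoacyl-tRNA, had medians of 1480 and 1362 RPKM (log2 difference 0.03, SE 0.14). EEF2, the translocation factor that works at the stalk base, had medians of 723.9 and 666.2 RPKM (0.10, SE 0.15). TPT1, a highly translated message of this class, had medians of 4197 and 3770 RPKM (-0.0052, SE 0.16). Ribosome biogenesis genes had 43 tested, 24 higher and a median of 0.026, with nucleolin (NCL) at medians of 66.3 and 49.1 RPKM (-0.15, SE 0.26).

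Other housekeeping lists were also without a call. Nuclear subunits of the respiratory chain (63 tested) had a median of -0.0035, proteasome genes (31 tested) 0.018, and spliceosome genes (38 tested) 0.00073. Chromatin remodelling genes (29 tested) had a median of -0.081 with 7 higher, and immediate early and stress genes (33 tested) had -0.029 with 11 higher. All 13 genes of the mitochondrial genome were higher in value in the present set, with a median of 0.19 and a smallest unadjusted p of 0.30. COX1, a catalytic subunit of cytochrome oxidase, had medians of 2796 and 2884 RPKM (log2 difference 0.15, SE 0.29). The median of these 13 genes was 0.64 with month as a factor, 0.33 within LOW RFI and 0.19 within HIGH RFI libraries. Here and below, month is the month of the column names. January, March and May 2020 and October 2019 held libraries of 1 set only, so they add nothing to the difference in a fit with month. February 2020 held 1 present library and September 2019 held 1 absent library. Month as a factor put the median of all genes at 0.21, and the nuclear lists of this and the preceding paragraph then had medians between 0.15 and 0.35, chromatin remodelling genes among them at 0.23. Chromatin remodelling genes were at 0.15 within LOW RFI and -0.17 within HIGH RFI libraries.

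Over the rest of the table no gene passed. Of the 10633 tested genes other than RPL12 and the 2 features above, 0 rose and 0 fell (smallest limma-adjusted p = 1.00). Those with an unadjusted p under 0.05 numbered 8, of which 2 had higher and 6 lower values in the present set. Where no gene differs, a share of about 0.05 of genes is expected at this limit, so the 8 are not read as differences. The 95% interval lay within a log2 difference of 1 in either direction for 10126 genes (95.2%). These intervals are on log2(RPKM + 1), which narrows them for genes of low level, so they do not bound the fold change of such genes. No gene other than RPL12 had values that did not overlap between the sets, among 21590 genes. RPL12 itself, the 0.00463% of the table that did not overlap, was made to by the rule.

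The 8 genes, named after their values were seen, are given as values only. PTGDS, a prostaglandin D synthase, had lowest, median and highest levels of 0.573, 10.4 and 114.5 RPKM in the absent and 0.825, 6.31 and 13.8 RPKM in the present libraries. The sets overlapped, with the absent set reaching higher, and the log2 difference was -1.09 (SE 0.43, limma-adjusted p = 1.00). NMI, an interferon-inducible protein, had medians of 21.6 and 17.1 RPKM (-0.35, SE 0.16), and the autophagy receptor CALCOCO2 had 37.8 and 31.1 RPKM (-0.28, SE 0.13). TMEM220, DMAC2L and ENSBTAG00000038536 were at -0.22, -0.20 and -0.32. COL26A1, a collagen gene, was at 0.47 (SE 0.20) on medians of 0.618 and 1.22 RPKM, and TMEM141 was at 0.26 (SE 0.13).

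**Figure D4:**
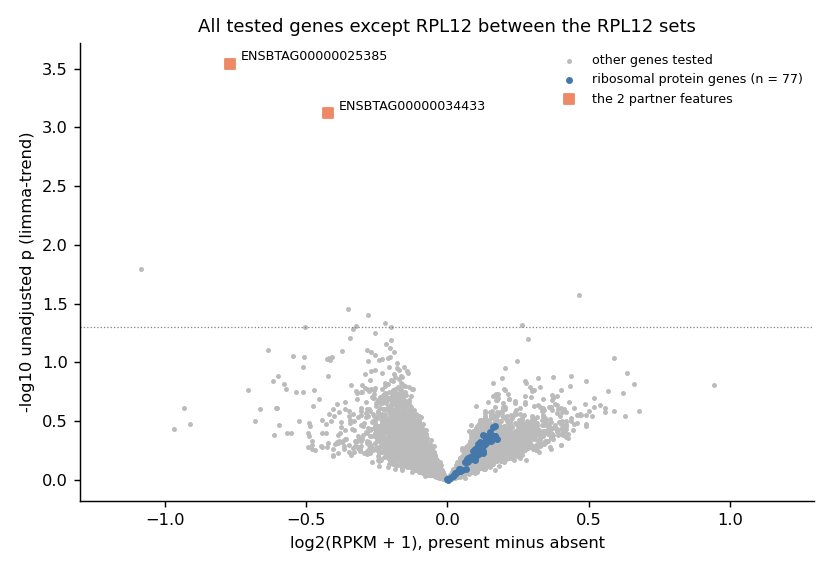
Log2 difference between the sets (RPL12-present minus RPL12-absent) against the unadjusted p of the limma fit on a −log10 axis, for the genes tested other than RPL12, with a dotted line at p = 0.05. Ribosomal protein genes cluster near 0, ENSBTAG00000025385 and ENSBTAG00000034433 stand at -0.77 and -0.42, and the other genes run from -1.09 to 0.94.

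Genes most like RPL12 across the 39 libraries were found by the Spearman correlation of their levels, as a description. The 5 highest were TM4SF5 (0.48), RPL27 (0.47), YPEL4 (0.47), TMEM141 (0.46) and MVB12A (0.46). The 5 lowest were SH3BP5 (-0.46), IL1R1 (-0.35), BTG3 (-0.35), NMI (-0.34) and ELAPOR1 (-0.33), and ENSBTAG00000025385 was at -0.31. The genes next to RPL12 were also looked up, by gene order in the RefSeq annotation of ARS-UCD2.0, an assembly other than that of the files. The 5 tested genes on each side had log2 differences between -0.13 (ZBTB43) and 0.19 (SLC2A8), and the smallest unadjusted p was 0.414. The nearest, ZNF79 and LRSAM1, were at 0.05 (SE 0.12) and 0.004 (SE 0.14).

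No cell type score differed detectably between the sets. Each score averages log2(RPKM + 1) over those marker genes of a type that were tested, and in bulk RNA fewer cells of a type and less RNA per cell cannot be told apart. The macrophage score was 6.07 ± 1.47 (SD, n = 20) in the absent and 6.34 ± 1.14 (SD, n = 19) in the present libraries, and differed by 0.28 (permutation p = 0.521, adjusted 0.992 over 21 library measures). Of 21 macrophage genes 19 had higher values in the present set, with a median of 0.26, and 0 passed. That median was 0.96 with month as a factor, 0.59 within LOW RFI and 0.21 within HIGH RFI libraries. Within months the macrophage score differed by 1.36 in December 2019 (exact permutation p = 0.2), by 2.61 in June 2020 (exact p = 0.0794) and by -1.73 in November 2019 (exact p = 0.333). The June value was the smallest exact p of any measure within a month, and the direction was not the same in the 3 months. The lysosomal proteases CTSB and CTSD were at 0.42 (SE 0.46) and 0.62 (SE 0.46). The neutrophil score was 4.2 ± 1.41 (SD, n = 20) against 4.08 ± 1.27 (SD, n = 19), and differed by -0.12 (permutation p = 0.781). For T cells the difference was -0.018 (permutation p = 0.961), for NK and cytotoxic cells -0.0034 (p = 0.992) and for B and plasma cells -0.052 (p = 0.768).

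Milk protein genes, the markers of secreting epithelium, had lower values in the present set for 7 of 7, with a median of -0.47 and 0 passing. Their median was -1.34 with month as a factor, -0.98 within LOW RFI and -0.41 within HIGH RFI libraries. The milk protein score differed by -3.10 in December 2019 (exact permutation p = 0.4), by -2.33 in June 2020 (exact p = 0.159) and by 1.44 in November 2019 (exact p = 0.667), so its direction also varied by month. CSN2, beta-casein, had lowest, median and highest levels of 154.3, 30509 and 174380 RPKM in the absent and 266.2, 28064 and 157652 RPKM in the present libraries. The ranges nearly coincided, and the log2 difference was -0.48 (SE 0.78). Mammary epithelium genes had 12 of 19 higher and a median of 0.19, and milk fat synthesis genes 3 of 14 higher and a median of -0.13. With month as a factor these medians were 0.31 and -0.39. Erythrocyte markers had 1 tested member, HBA, at -0.22 (SE 0.29), and at 0.14 with month as a factor. HBA was at 0.30 within LOW RFI and -0.84 within HIGH RFI libraries.

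**Figure D5:**
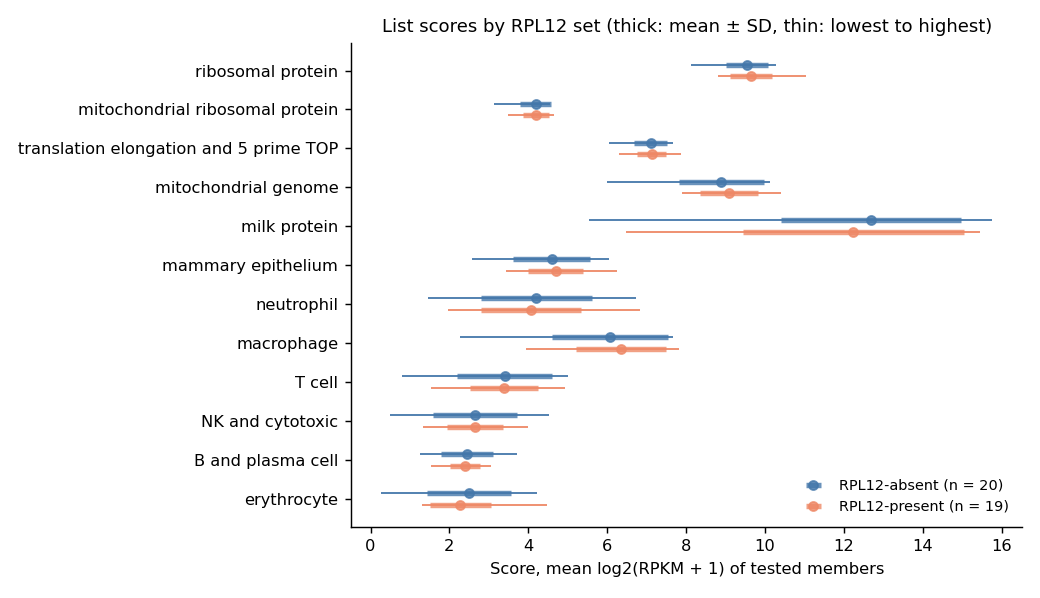
List scores, the average log2(RPKM + 1) of tested members, by set, with points for means, thick bars for the SD over libraries and thin lines from the lowest to the highest library. The RPL12-absent and RPL12-present libraries overlap in every score shown, and the ribosomal protein score is 9.54 ± 0.523 in the absent and 9.64 ± 0.529 in the present set.

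Depth and other library measures did not pass a test between the sets either. Mapped reads were 95025800 ± 22696800 (SD, n = 20) in the absent and 103032000 ± 38963200 (SD, n = 19) in the present libraries (permutation p = 0.445). Genes at 1 RPKM or more numbered 10094 ± 1130 and 10129 ± 647.3 (permutation p = 0.910). The ribosomal protein score differed by 0.096 (SE 0.169, permutation p = 0.575). The first principal component of the tested genes, with 54.1% of the variance, gave a permutation p of 0.844. Of 21 measures 0 passed, and the smallest unadjusted p was 0.223. Within the months of the column names that held at least 2 libraries of each set, the ribosomal protein score differed by -0.40 in December 2019 (3 absent against 2 present, exact permutation p = 0.400, smallest possible 0.1), by -0.17 in June 2020 (5 against 4, exact p = 0.508) and by 1.15 in November 2019 (2 against 2, exact p = 0.333, the smallest possible).

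The RPL12-present set held 13 of 22 LOW RFI cows (59.1%) and 6 of 17 HIGH RFI cows (35.3%). The odds ratio was 2.65 (two-sided Fisher's exact p = 0.200, adjusted 0.297 over 4 associations). Month tags were uneven between the sets (permutation p = 0.0413), which did not pass adjustment (0.165). All 4 libraries of January 2020 and 5 of 6 of September 2019 were RPL12-present, while 5 of 6 of February 2020 and both those of October 2019 and of May 2020 were RPL12-absent. Month and RFI label were linked too, as the 6 libraries of February 2020 were all HIGH RFI. What the tags date is not given. A mark in the column names of 9 libraries fell on 3 present and 6 absent ones (Fisher's exact p = 0.451). The mark was 1 in LOW RFI 3 and 2 in the others, pooled here. All marked libraries except HIGH RFI 13 were LOW RFI, so mark and label were linked too.

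The comparison of the RFI labels, the one the series was made for, was run with the RPL12 set as a covariate. It called 0 of 10636 genes (0.0%), as did the fit without the covariate, and genes at an unadjusted p under 0.05 numbered 566 with it and 633 without it by limma. Within the RPL12-absent libraries 0 genes passed and 487 were at an unadjusted p under 0.05, and within the RPL12-present libraries 0 passed and 21 were. A share of about 0.05 of genes is expected at that limit where none differs, so these counts are not read as differences. The interaction of set and label called 0 genes (0.0%), with 32 at an unadjusted p under 0.05, so a difference in RFI effect between the sets was not detected.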

How the data were processed

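The deposited table gives RPKM for 21661 features in 39 columns, per the file headers. The submitters' processing notes name ARS-UCD1.2 as genome build. Aligner, counter, annotation and strandedness: not given in the sources used here. Rows that share a symbol (135) were summed, which left 21590 genes. Whole reads recovered from the RPKM steps (19616 of 19616 features above 0, within 0.02 reads) gave 41637742 to 204905052 mapped reads per library, of which 80.9% to 96.5% fell in genes. Symbols came from the files, and 17377 identifiers matched RefSeq of ARS-UCD2.0. The members, gene lists and tests were chosen with earlier results of these data known.

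Libraries were split at 1 and 300 RPKM of RPL12. limma 3.58.1 in R 4.3.3 (trend, robust) was fitted to log2(RPKM + 1), so that differences of low genes are understated. RPL12, ENSBTAG00000025385 and ENSBTAG00000034433 stayed in the fit and out of the counts. Of the ribosomal protein genes counted, 1 is not reported here by name. Single measures had two-sided permutation tests (100000 resamples). Cows are the replicates. The recovery of reads was tested on simulated reads. The limma fit was tested on residuals of these libraries, shuffled between libraries, with known changes inserted. Named were RPL12, the 5 features of highest and of lowest Spearman correlation with it, genes that did not overlap, genes that passed and, in lists with none, the 2 members of highest level. Not all of the last are given, and genes named for other reasons (single ribosomal protein genes, the neighbours, the 8 of lowest p) were chosen after their values were seen. Alternatives were scalings, filters, pseudocounts, covariates, subsets of libraries and limma-voom on the recovered reads.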

Additional observations from a re-analysis of the deposited data

Results flagged for a closer look

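HIGH RFI 2 stood apart from the other RPL12-present HIGH RFI libraries (n = 6 with it). RPL12 held 73.7% of the reads of RPL12 and ENSBTAG00000025385 in it, while the others lay between 36.6% and 38.0%. ENSBTAG00000025385 came to 0.364% of the other ribosomal protein reads in it, while the others lay between 0.775% and 0.886%. Both values rest on the same reads. The gap took 0.961 and 0.787 of the group's whole range, above Dixon's critical value of 0.625. The shares hold the RPL12 values that chose the sets and restate the class of high share, so the gap is a description and no further evidence for it. Of 16 groups checked 2 gave such a gap. The critical value lets about 1 in 20 groups pass by chance, but both gaps rest on this library and the same reads. They are therefore not set against that rate. LOW RFI 13 and LOW RFI 5 had like shares, but their group is too large for this check.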

How the results depend on the processing

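In each of 19 alternatives 0 genes other than RPL12 and the 2 features passed. In the 18 run on ribosomal protein genes 0 of those passed. The threshold of 0.01 could add no call to a fit with none besides RPL12 at 0.05. The ribosomal protein score as covariate takes out the shared difference of the ribosomal protein genes by construction. The smallest adjusted p was 0.555, without a filter on low values. Genes at an unadjusted p under 0.05 numbered from 2 (HIGH RFI only) to 698 (cell type scores as covariates, 11 of them higher in the present set), with 181 under month as a factor (162 higher). The median log2 difference of all genes was 0.21 with month, -0.10 with cell type scores and -0.10 without the 4 libraries least correlated with the rest. The share of genes with higher values was then 85.9%, 15.3% and 13.0%, against 49.2%. The cause was not tested. The ribosomal protein median ran from -0.05 (LOW RFI only) to 0.24 (without the marked libraries, all LOW RFI except HIGH RFI 13). ENSBTAG00000025385 passed in 2 alternatives, with the ribosomal protein score as covariate and with the RPL12 share as a number (limma-adjusted p = 0.0104). The share contains the reads of ENSBTAG00000025385, so its pass there is partly built in and is no support. ENSBTAG00000034433 passed in the first of these alternatives. Those alternatives, and the ones that leave out single libraries, marked libraries or the high-share libraries, were chosen after seeing the data. The RFI comparison called 0 genes in its 3 alternatives, with 307 to 942 at an unadjusted p under 0.05, and the interaction 0 in its 2, with 30 and 33. Limits of 10 and 100 RPKM for RPL12 gave the same sets, as they must with no library between 1 and 300 RPKM. No paired analysis was possible because the labels give cow numbers and no replicate numbers shared between groups.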
